A study of Sus scrofa with 11 samples.

Results

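PCP4L1, A2M, GNB5, TSPYL4 and CDO1 are 5 genes whose log2 signal was higher in vehicle-injected hearts of pigs on a high fat diet than in any other hearts of the series. They were chosen by measured values of these same arrays, namely the difference of the HFD group from the ND, ND+EV and HFD+EV groups, so those differences are described here without a test. The 5 genes are among 12217 named genes and are carried by 6 of the 27558 probe sets, because TSPYL4 has a pair of them. Of these 6 probe sets, 5 lay above the signal filter, 1 for each gene, and the lower of the TSPYL4 pair did not. They are probe sets 15279678 (PCP4L1), 15289482 (A2M), 15185965 (GNB5), 15193678 and, under the filter, 15193682 (TSPYL4) and 15266414 (CDO1). High signal was not limited to HFD for A2M, which was also high on 1 HFD+EV and 1 ND+EV array, and the weaker TSPYL4 probe set overlapped ND.

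The series asked how diet bears on blood vessel growth after injection of extracellular vesicles (EV), particles shed by cells. All 11 arrays come from the ischemic zone of the left ventricle of intact male Yorkshire swine, and every pig carried an ameroid constrictor, which closes a coronary artery gradually, on the left circumflex artery. ND (3 arrays) received normal diet and vehicle, ND+EV (3) normal diet and EV, HFD (2) a high fat diet and vehicle, and HFD+EV (3) a high fat diet and EV. The diets lasted 12 weeks, and tissue was taken 5 weeks after injection into the heart muscle. The titles call the arrays of a group biological replicates, but no label ties an array to a pig, so the spread between arrays may be partly technical. The sources used here do not say which cells gave the EV or how old the pigs were.

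The 5 genes belong to different systems. PCP4L1 is a small protein with an IQ motif, the sequence by which its relative PCP4 binds the calcium sensor calmodulin. GNB5 is a divergent G protein beta subunit that pairs with RGS proteins and speeds the shutting off of inhibitory G protein signals, and in the heart it is known for its part in the vagal control of rate. A2M, alpha-2-macroglobulin, is a large secreted protein that traps proteases and is cleared through the receptor LRP1. CDO1, cysteine dioxygenase, oxidises cysteine in the first step towards taurine, an amino acid abundant in heart muscle. TSPYL4 belongs to the nucleosome assembly protein family, whose best known members carry histones.

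On all arrays together, medians of log2 signal ran from 4.36 to 4.48. ND replicates 1 and 3 had the lowest mean correlations with the other arrays (0.946 and 0.952, against 0.965 to 0.972 for the other 9). The spread of log2 signal (SD) was 1.59 and 1.62 on HFD replicates 1 and 2 and 1.45 to 1.60 on the others, where HFD+EV replicate 3 was the highest. Of 10 ventricular muscle markers 7 were measured, from MYL2, the ventricular myosin light chain, at 12.40 to 13.22, down to PLN, the regulator of the calcium pump, at 4.97 (ND replicate 1) to 6.95.

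PCP4L1 had the widest gap between HFD and all other arrays of any probe set tested. Its log2 signal was 5.80 and 6.70 on HFD replicates 1 and 2. It was 4.52, 4.51 and 3.88 on ND replicates 1 to 3, 4.48, 4.40 and 4.53 on ND+EV, and 4.65, 4.56 and 4.57 on HFD+EV. The 9 arrays outside HFD thus lay between 3.88 and 4.65, and the lower HFD array lay 1.16 above the highest of them, HFD+EV replicate 1. That gap ranked 1 among 20668 probe sets, and no other reached 1. The HFD mean exceeded the mean of the other 3 group means by 1.79, a fold of 3.47. HFD replicate 2 was 0.89 above HFD replicate 1, and the difference was 1.35 without replicate 2 and 2.24 without replicate 1.

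The level of PCP4L1 differed little among the other groups. Its mean was 4.31 ± 0.37 in ND, 4.47 ± 0.06 in ND+EV and 4.59 ± 0.05 in HFD+EV (SD, n = 3 each), against 6.25 ± 0.63 in HFD (n = 2). In HFD+EV against ND+EV every array was higher, by 0.12 ± 0.23 on average (SE; limma adjusted p = 0.913). It also lay above every ND array, by 0.29 ± 0.23 (SE; limma adjusted p = 0.526). Neither difference passed, and both were smaller than the difference between the HFD arrays. ND+EV and ND overlapped, at 0.16 ± 0.23 (SE; limma adjusted p = 0.856), and this difference was -0.047 without ND replicate 3, the lowest array.

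GNB5 had the tightest pair of HFD arrays. Its log2 signal was 5.71 and 5.83 on HFD replicates 1 and 2. It was 4.75, 4.94 and 4.85 on ND replicates 1 to 3, 4.64, 4.97 and 4.61 on ND+EV, and 4.69, 4.92 and 5.19 on HFD+EV. The HFD arrays did not overlap any other array, and the gap to the highest, HFD+EV replicate 3, was 0.52, rank 13 among the probe sets tested. HFD exceeded the mean of the other groups by 0.93, a fold of 1.90. The group means were 5.77 ± 0.08 in HFD (SD, n = 2), 4.93 ± 0.25 in HFD+EV, 4.85 ± 0.09 in ND and 4.74 ± 0.20 in ND+EV (n = 3 each). The last 3 overlapped one another: HFD+EV minus ND+EV was 0.19 ± 0.15 (SE; limma adjusted p = 0.791), HFD+EV minus ND 0.09 ± 0.15 (0.788; -0.041 without HFD+EV replicate 3) and ND+EV minus ND -0.11 ± 0.15 (0.861).

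A2M had the largest average difference of the 5 genes and the least even pattern. Its log2 signal was 6.43 and 7.29 on HFD replicates 1 and 2. HFD+EV replicate 1 read 6.25, close under the lower HFD array, while HFD+EV replicates 2 and 3 read 3.96 and 4.15. On ND+EV the values were 4.53, 5.66 and 4.12, with replicate 2 high, and on ND 4.58, 4.44 and 4.61. A high A2M signal was therefore not restricted to vehicle-injected hearts on the high fat diet. The gap between the lower HFD array and HFD+EV replicate 1 was 0.18, rank 207, although the difference of HFD from the other groups, 2.16 or a fold of 4.48, ranked 2. With HFD+EV replicate 1 and ND+EV replicate 2 left out together, a choice made after seeing the values, the difference was 2.56. Leaving out the highest array of each of these groups could only raise it.

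The mean of A2M was 6.86 ± 0.61 in HFD (SD, n = 2), 4.79 ± 1.27 in HFD+EV, 4.77 ± 0.80 in ND+EV and 4.54 ± 0.09 in ND (n = 3 each). The EV groups spread far more than the ND group, each through 1 array. The HFD+EV mean differed from ND+EV by 0.02 ± 0.56 (SE; limma adjusted p = 0.995) and from ND by 0.24 ± 0.56 (limma adjusted p = 0.845). Without HFD+EV replicate 1 these turned to -0.71 and -0.49. ND+EV minus ND was 0.23 ± 0.56 (SE; limma adjusted p = 0.929), and -0.22 without ND+EV replicate 2.

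TSPYL4 was measured by a pair of probe sets, which differed in how far HFD stood apart. On the stronger one the log2 signal was 6.77 and 6.35 on HFD replicates 1 and 2. It was 5.17, 5.53 and 5.77 on ND replicates 1 to 3, 5.78, 5.54 and 5.87 on ND+EV, and 5.26, 5.61 and 5.77 on HFD+EV. The HFD arrays did not overlap the rest, with a gap of 0.48 (rank 16) above ND+EV replicate 3. HFD exceeded the mean of the other groups by 0.97, a fold of 1.97. On the weaker probe set, whose mean of 3.59 lay under the filter at 3.63, HFD replicate 2 (4.05) was below ND replicate 3 (4.17), so HFD overlapped ND. There HFD exceeded the mean of the other groups by 0.84, and HFD+EV was lowest, at 3.02, 3.02 and 3.20. HFD+EV lay below every ND array there, with a difference of -0.74 that was not tested because of the filter. The mean of both probe sets gave 0.91.

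Among the other groups, TSPYL4 levels on the stronger probe set overlapped throughout. The means were 6.56 ± 0.30 in HFD (SD, n = 2), 5.73 ± 0.17 in ND+EV, 5.55 ± 0.26 in HFD+EV and 5.49 ± 0.30 in ND (n = 3 each). HFD+EV minus ND+EV was -0.18 ± 0.19 (SE; limma adjusted p = 0.850), and ND+EV minus ND was 0.24 ± 0.19 (limma adjusted p = 0.732). HFD+EV minus ND was 0.06 ± 0.19 (SE; limma adjusted p = 0.899), which was -0.10 without ND replicate 1, -0.054 without HFD+EV replicate 3 and about 0 (-0.00023) under cyclic loess.

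By group means, CDO1 formed steps rather than a single raised group, although HFD+EV overlapped both ND+EV and ND. Its log2 signal was 6.67 and 6.09 on HFD replicates 1 and 2. It was 5.77, 5.78 and 5.84 on ND+EV, 5.41, 5.75 and 5.78 on HFD+EV, and 4.91, 5.54 and 5.27 on ND replicates 1 to 3. HFD was above every other array, with a gap of 0.25 (rank 114) to ND+EV replicate 3, and ND was the lowest group. The means were 6.38 ± 0.41 in HFD (SD, n = 2), 5.80 ± 0.03 in ND+EV, 5.65 ± 0.21 in HFD+EV and 5.24 ± 0.31 in ND (n = 3 each). HFD exceeded the mean of the other groups by 0.81, a fold of 1.76, which was 0.52 without HFD replicate 1 and 1.11 without HFD replicate 2.

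In the comparisons without the HFD arrays, CDO1 had the largest difference among the 5 probe sets past the filter. In ND+EV every array was above every ND array, by 0.56 ± 0.19 (SE), a fold of 1.47, and this did not pass (limma adjusted p = 0.548, unadjusted 0.0154). With single arrays left out the difference of ND+EV from ND ran from 0.39 to 0.70, and it was 0.26 without both ND replicates 1 and 3. HFD+EV was higher than ND by 0.41 ± 0.19 (SE; limma adjusted p = 0.316), with 1 array of HFD+EV inside the range of ND. That difference ran from 0.24 to 0.56 with single arrays left out and was 0.11 without both ND replicates 1 and 3. HFD+EV and ND+EV overlapped, at -0.15 ± 0.19 (SE; limma adjusted p = 0.875). The neighbouring levels ND+EV and HFD+EV thus did not differ beyond their spread.

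**Figure D1:**
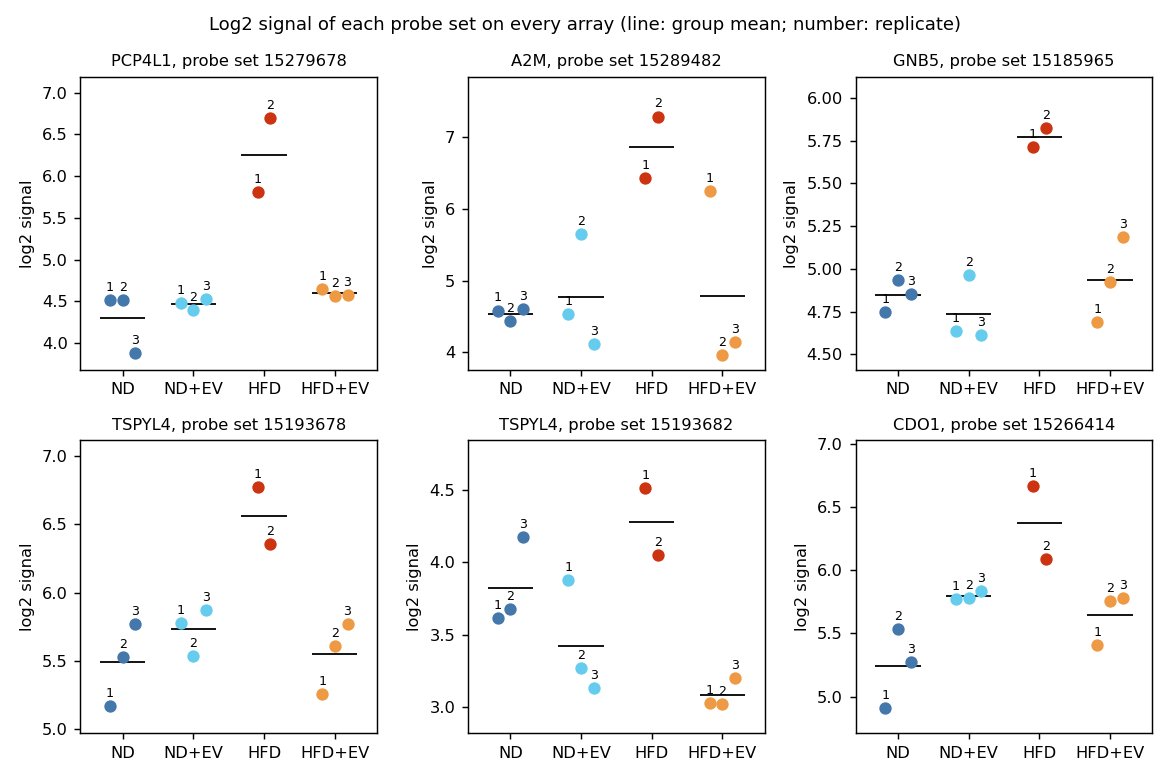
Log2 signal (vertical axis, scaled separately in each panel) of the 6 probe sets of the 5 genes in the 4 groups; each point is 1 array with its replicate number and each line a group mean. HFD stands above all other arrays in 5 panels, HFD+EV replicate 1 of A2M (6.25) comes close to it, and on the weaker TSPYL4 probe set HFD replicate 2 lies under ND replicate 3.

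Seen together, the 5 genes had both HFD arrays above all 9 others, which held for 965 probe sets of the 20668 tested (4.67%). Since the genes were chosen for this, their count carries no further information. What the choice did not set was which HFD array was higher. HFD replicate 2 was higher for PCP4L1, A2M and GNB5 (by 0.89, 0.86 and 0.11), and HFD replicate 1 was higher for TSPYL4 and CDO1 (replicate 2 minus replicate 1 of -0.42 and -0.58). Over all probe sets replicate 2 was higher at 50.1%. Quantile normalization, which gives every array the same distribution, kept all 5 genes above the other arrays with smaller gaps, among them 0.065 for A2M (0.18 as deposited), 0.10 for CDO1 (0.25) and 0.31 for TSPYL4 (0.48). The gaps of PCP4L1 (1.14) and GNB5 (0.49) moved little. Median centring instead widened the gaps of PCP4L1 (1.23), A2M (0.26), TSPYL4 (0.56) and CDO1 (0.29). Cyclic loess widened those of PCP4L1 (1.21) and A2M (0.19) and narrowed those of TSPYL4 (0.38) and CDO1 (0.15). Under these rescalings the gap of GNB5 was 0.52 and 0.53.

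**Figure D2:**
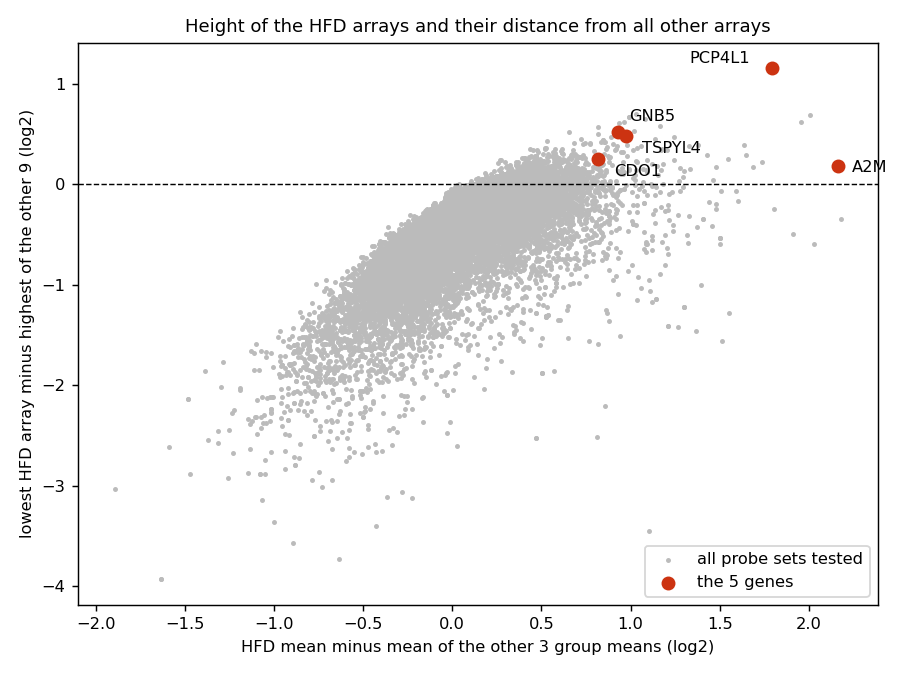
For each of 20668 probe sets (grey) and the 5 genes (red), the difference of the HFD mean from the mean of the other 3 group means (horizontal, log2) against the lowest HFD array minus the highest of the other 9 (vertical, log2). Points above the dashed line have both HFD arrays above all others; PCP4L1 has the highest gap (1.16), and A2M joins a difference of 2.16 with a gap of 0.18.

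The fold by which HFD exceeded each of the other groups was spread unevenly. For PCP4L1 it was 3.85 against ND, 3.43 against ND+EV and 3.15 against HFD+EV. For A2M it was 4.99, 4.27 and 4.21 in the same order. GNB5 (1.90, 2.04 and 1.78) and TSPYL4 (2.11, 1.78 and 2.02) lay near a doubling against each group, and CDO1 ran from 2.20 against ND to 1.50 against ND+EV and 1.66 against HFD+EV. These comparisons share the HFD arrays, and their values are given side by side as a description. In bulk tissue, fewer cells of a type and less RNA per cell cannot be told apart.

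In the comparisons without the HFD arrays, 0 of the 5 genes passed. In HFD+EV against ND+EV limma called 0 of 20668 probe sets (0%), with 1522 at an unadjusted p under 0.05, and in ND+EV against ND 0 (0%) with 1758. In HFD+EV against ND it called 5 (0.0242%), and none of these was a probe set of the 5 genes. Arrays of the groups compared did not overlap at 14.5% of probe sets in HFD+EV against ND+EV, where PCP4L1 was the 1 member of this kind. The shares were 11.6% in ND+EV against ND, where CDO1 was the 1 member, and 17.2% in HFD+EV against ND, where it was PCP4L1. Counts of 1 in 5 are near these backgrounds.

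**Figure D3:**
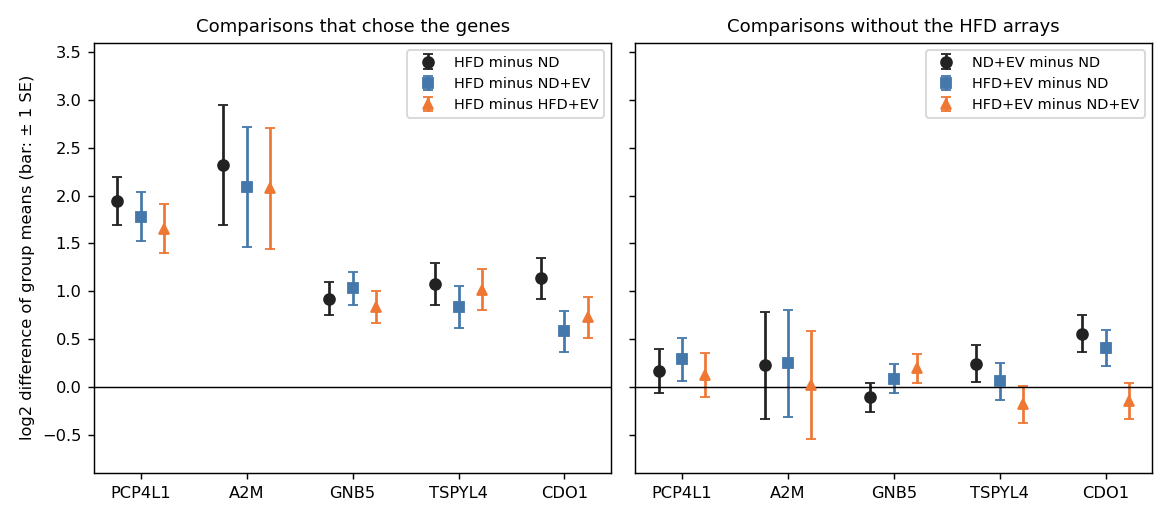
Differences of group means (vertical, log2) with bars of 1 SE from limma for the 5 genes, on the left in the comparisons that chose them and on the right in those without the HFD arrays. The left values run from 0.58 (CDO1 against ND+EV) to 2.32 (A2M against ND), and the right ones from -0.18 (TSPYL4, HFD+EV minus ND+EV) to 0.56 (CDO1, ND+EV minus ND).

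Outside HFD the 5 genes did not vary together as one group. Over the 9 other arrays, TSPYL4 and CDO1 had the highest correlation (Pearson r = 0.69, Spearman rho = 0.67), and A2M ran opposite to TSPYL4 (r = -0.56, rho = -0.49). The other 8 pairs had r from -0.33 to 0.27. These are descriptions of arrays from 3 groups of 1 series, and they carry no test.

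The named genes most like each member over the 11 arrays were searched among 9733 others by Pearson correlation, where the HFD arrays weigh heavily. TRAPPC4, a subunit of complexes that tether transport vesicles, was nearest to PCP4L1 (r = 0.93, or 0.44 over the 9 arrays outside HFD), to A2M (0.88, or 0.65) and to the mean profile of the 5 (0.95, or 0.65). Its log2 signal was 6.61 and 6.90 on HFD and 5.48 to 6.07 elsewhere. PCP4L1 was next followed by the chemokine receptor CXCR4 (0.93, or 0.78) and TMEM154 (0.92, or 0.73). A2M was followed by IL10RA, a chain of the interleukin-10 receptor (0.87, or 0.61), and LRP3 (0.87, or 0.92).

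For GNB5 the nearest genes were UPRT (0.94, or 0.77), the RNA helicase DDX21 (0.93, or 0.87) and FKBP10, a folding factor for collagen in the endoplasmic reticulum (0.93, or 0.82). For TSPYL4 they were FAM20B (0.97, or 0.89), YPEL5 (0.94, or 0.78) and TM2D2 (0.94, or 0.89). For CDO1 they were MCUB, a subunit of the mitochondrial calcium uniporter (0.96, or 0.91), the autophagy protease ATG4A (0.93, or 0.93) and RRAGC, a GTPase of amino acid sensing (0.93, or 0.87). The correlations outside HFD are not independent of the search, which used those arrays too. After TRAPPC4, the mean profile was most like YPEL5 (0.94, or 0.68), PTCD2 (0.94, or 0.88), FAM219B (0.94, or 0.73) and POLL, a DNA repair polymerase (0.94, or 0.56).

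Around CDO1, 17 of 25 listed genes of cysteine and taurine metabolism were measured and 12 tested. Both HFD arrays were above all others for 0 of the 12, and for 4.67% of all probe sets tested, a share at which a list of this size may hold none. That share counts probe sets, named or not, while this list and those below count genes by 1 probe set each. Of the 9738 named genes tested, 582 had a probe set with both HFD arrays above all others. The median difference of HFD from the mean of the other groups was -0.01, against 0.03 over all 9738 genes tested. The genes that differed most were the aminotransferases GOT1 (0.78) and GOT2 (0.72), which act on the product of CDO1 among other substrates, and AHCY (0.47), which yields homocysteine. All 3 overlapped arrays of other groups, with HFD of GOT1 at 9.53 and 9.85 and the other arrays at 7.80 to 9.63.

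Around GNB5, 18 of 36 listed genes of G protein and RGS signalling were tested, and 1 had both HFD arrays above all others, a share near the 4.67% of all probe sets tested. It was ADORA1, the adenosine receptor that slows the heart through inhibitory G proteins, at 5.99 and 6.64 on HFD and 5.02 to 5.94 elsewhere (0.78 above the mean of the other groups). RGS5, a regulator of G protein signals in pericytes (0.70), and the cardiac adenylyl cyclase ADCY5 (0.61) differed next most and overlapped other arrays. The median was 0.19, against 0.03 over all genes tested, and 13 of the 18 were on the higher side. The share of all genes tested that lay on the higher side was not counted. GNB2 and GNB3, the other beta subunits tested in the list, differed by -0.04 and -0.09. Of the listed RGS genes, RGS2, RGS3, RGS4 and RGS5 were tested, while RGS6, RGS7, RGS9 and RGS11 were not measured.

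Around PCP4L1, 14 of 23 listed calmodulin and IQ motif genes were tested, and 4 had both HFD arrays above all others, beside 4.67% of all probe sets tested. These were CAMKK2, a kinase switched on by calmodulin (0.53 above the mean of the other groups, with HFD at 6.46 and 6.45 and the rest at 5.49 to 6.18), the calcineurin subunit PPP3CB (0.69), CAMK2G (0.36) and RCAN2 (0.35). RCAN1, an inhibitor of calcineurin, differed most (0.92) but overlapped, at 6.54 and 7.51 on HFD and up to 6.79 elsewhere. The median was 0.18 (0.03 over all genes tested), with 9 genes on the higher side and 5 on the lower. Again the share of all genes tested on the higher side was not counted.

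Around A2M, 19 of 31 listed protease inhibitor and clearance genes were tested, and 3 had both HFD arrays above all others, again beside 4.67% of all probe sets tested. They were TIMP3, an inhibitor of metalloproteinases held in the matrix (0.72; 9.55 and 9.99 on HFD, 7.51 to 9.44 elsewhere), the collagen chaperone SERPINH1 (0.66) and the chaperone HSPA5 (0.54). SERPINF1 differed most (0.74) and overlapped. The median was 0.15, against 0.03 over all genes tested, with 12 genes on the higher side and 7 on the lower. Around TSPYL4, 11 of 19 listed genes of histone chaperones were tested, and 10 were on the higher side (median 0.20). In this list 0 had both HFD arrays above all others, which is near the 4.67% of all probe sets. For neither list was the share of all genes tested on the higher side counted. SET (0.45), TSPYL2 (0.26) and NAP1L5 (0.22) differed most.

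Of the 74 genes tested in these 5 lists, 0 passed in any of the 6 comparisons between groups. In HFD against ND, 4 passed without ND replicate 2, 2 under median centring, 1 with the lowest 50% of probe sets left out and 1 without HFD+EV replicate 1, where 1 also passed in HFD+EV against ND. With limma, HFD against ND called 152 probe sets of 20668 (0.735%), a count that ran from 0 to 1353 as each of the 11 arrays in turn was left out (1353 without ND replicate 2 and 721 without HFD+EV replicate 1). HFD against HFD+EV called 0 (0%; 1146 at an unadjusted p under 0.05), and HFD against ND+EV called 0 (0%; 2920). In HFD against ND the smallest limma adjusted p among the 74 was that of PPP3CB, at 0.0600, with a log2 difference of 1.07.

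The nearest genes with a probe set past the filter were read beside the members along the chromosomes, in the order of a RefSeq annotation. They were chosen by position after the members' values had been seen. Of these 10 genes, 1 had both HFD arrays above all others, near the 4.67% of all probe sets. It was TMED7, a cargo receptor of the secretory pathway near CDO1, at 6.46 and 6.91 on HFD and 5.71 to 6.37 elsewhere. ATG12 on the other side of CDO1 was at 4.26 on both HFD arrays and 4.19 to 4.53 elsewhere. TSPYL1, the neighbour and relative of TSPYL4, was at 6.19 and 6.14 on HFD, inside the range of the others (5.64 to 6.35). COL10A1, a collagen gene on the other side of TSPYL4, was lower on both HFD arrays (4.33 and 4.48) than on all others (4.54 to 5.07). How many of all probe sets were lower in this way was not counted. NR1I3 beside PCP4L1, FCGR2B on its other side with 48 genes between, M6PR and KLRB1 near A2M, and MYO5A and MAPK6 near GNB5 overlapped between HFD and the other arrays.

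Markers of cell types were read beside these genes. Of 12 marker lists, 0 had a score (the mean over markers of log2 signal minus the marker's mean over all arrays) that was higher on both HFD arrays than on all others. Of 82 measured markers 1 was so, TAGLN of smooth muscle, beside 4.67% of all probe sets tested. Its lower HFD array (7.09) was only 0.0058 above ND replicate 2 (7.08). Atrial markers (8 of 10 measured) scored 0.22 and 0.98 on HFD replicates 1 and 2, -0.61 to 0.37 on ND, -0.33 to 0.17 on ND+EV and -0.39 to 0.001 on HFD+EV. The summed atrial signal was 10.72 and 11.26 in log2 on HFD, 9.36 to 10.79 on ND, 10.45 to 10.91 on ND+EV and 9.59 to 10.29 on HFD+EV. HFD replicate 2, where PCP4L1, A2M and GNB5 were highest and TSPYL4 and CDO1 were not, had the highest atrial score, though its markers did not move as one. On that array SLN (6.73, against 3.18 to 3.94 on the other 10 arrays), NPPA (9.27) and NPPB (9.68) were at their highest, BMP10 (3.69) was at its lowest, and MYL7 (8.44) was below all ND+EV arrays (8.98 to 9.79). The part of atrial cells in the results was not tested.

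Fibroblast markers (9 of 10 measured) scored 0.13 and 0.64 on HFD, -0.84 to 0.08 on ND, -0.08 to 0.01 on ND+EV and -0.25 to 0.45 on HFD+EV, with summed signals of 12.86 and 13.38, 11.58 to 12.87, 12.66 to 12.74 and 12.53 to 13.20. Smooth muscle and pericyte markers (7 of 10) scored 0.13 and 0.50 on HFD, -0.39 to 0.27 on ND, -0.33 to -0.16 on ND+EV and -0.19 to 0.26 on HFD+EV, with summed signals of 9.81 and 10.34, 9.34 to 9.93, 9.23 to 9.49 and 9.50 to 9.93. The part of these cells in the results was not tested. On HFD+EV replicate 1, where A2M was high, the fibroblast, smooth muscle and atrial scores were -0.25, -0.19 and -0.38. The lymphocyte score of that array (0.14) was the highest of all arrays. The part of any of these cells in the A2M values was not tested.

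The score of the red cell markers (4 of 8 measured) was lowest on the HFD arrays, at -0.20 on both against -0.12 to 0.34 on the others. Their summed signal was 5.71 and 5.69 against 5.79 to 6.26. No single marker of the list had both HFD arrays below all others. All were low, with means from 3.24 (ALAS2, under the filter) to 4.18 (SLC4A1). The part of red cells in the results was not tested either.

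For A2M, which the liver secretes, markers of liver plasma proteins (8 of 10 measured) were read as well. Their score was -0.09 and -0.07 on HFD, 0.03 to 0.11 on ND, -0.03 to 0.08 on ND+EV and -0.13 to 0.02 on HFD+EV, and their summed signal was 7.19 and 7.17, 7.25 to 7.42, 7.23 to 7.29 and 7.11 to 7.32. The albumin gene ALB lay between 3.37 and 3.98 on all arrays, close to the filter, and FGB and FGG lay under it. The part of the liver in the A2M values was not tested. For CDO1, which fat cells express, adipocyte markers (7 of 10 measured) scored 0.08 and 0.02 on HFD, -0.29 to 0.04 on ND, 0.01 to 0.05 on ND+EV and -0.004 to 0.03 on HFD+EV. Their summed signal was 9.23 and 8.99, 8.26 to 9.13, 8.95 to 9.08 and 8.89 to 9.21, and its markers differed: LEP (mean 3.33) and PLIN1 (4.36) were low throughout, LPL was well expressed (8.39), PLIN4 was highest on HFD replicate 1 (6.48) and PPARG on HFD replicate 2 (4.67). The part of fat cells in the results was not tested.

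**Figure D4:**
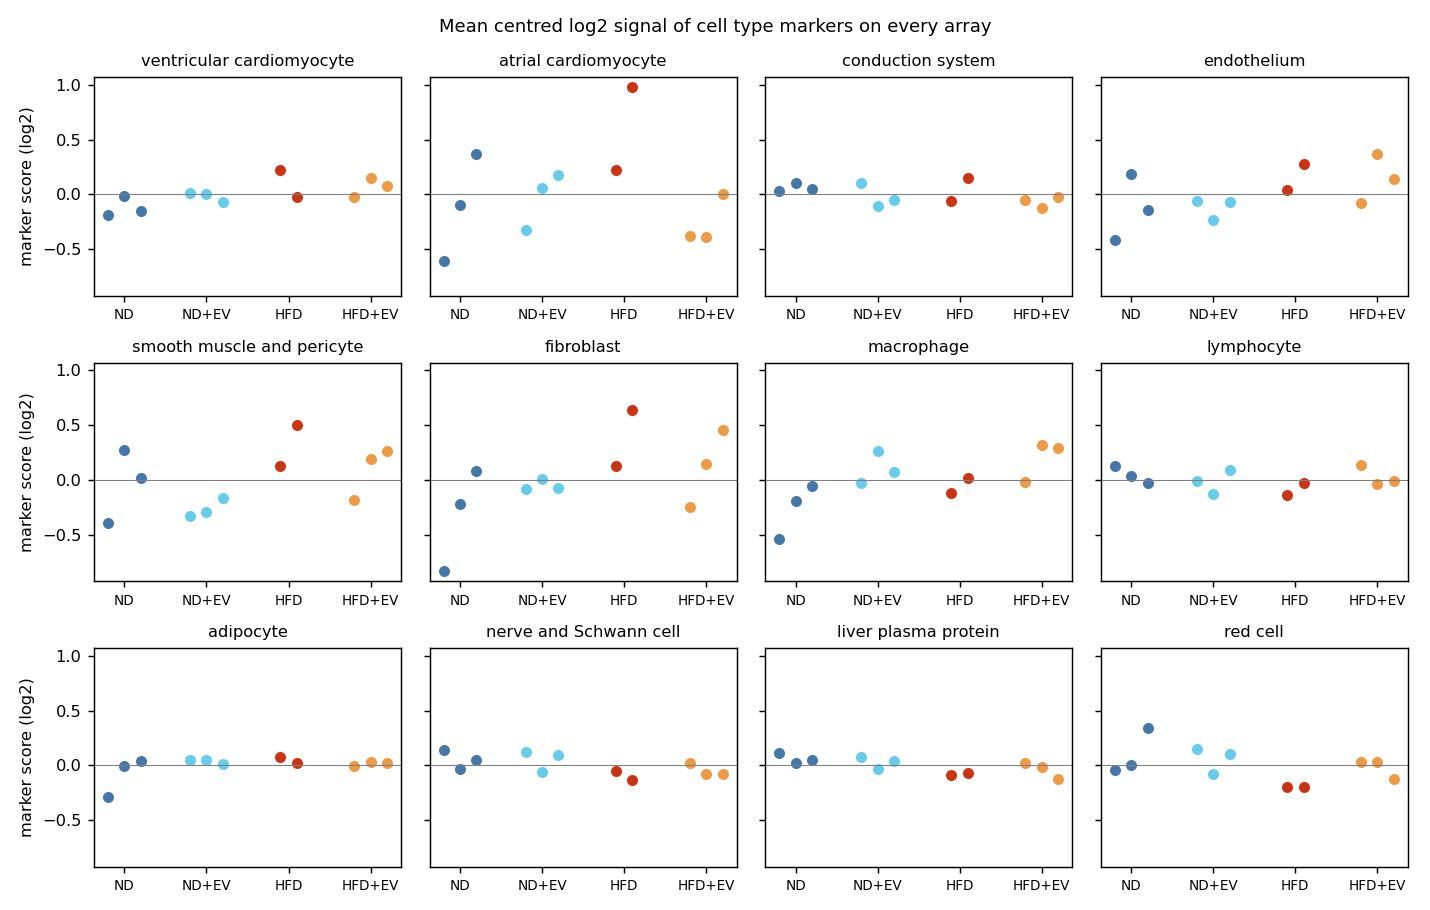
Scores of 12 lists of cell type markers (vertical, mean centred log2 signal) in the 4 groups, with 1 point per array in order of replicate. HFD replicate 2 has the highest atrial (0.98), fibroblast (0.64) and smooth muscle (0.50) scores, and liver and adipocyte scores stay between -0.29 and 0.11.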

How the data were processed

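Total RNA (50 ng per the labels) from 11 heart samples was measured on Affymetrix arrays. For each probe set the authors deposited a normalized log2 signal, made with Transcriptome Analysis Console per the submitters' processing notes. The sources used here do not state the summary method, annotation version or genome build. Coordinates are therefore left out, and the log2 scale was read from the range of values (2.14 to 14.02). The platform annotation gave 1 gene symbol to 13157 probe sets, several to 523 and none to 13878. Of the first, 12841 matched the RefSeq table of Sscrofa11.1 by gene ID, which updated 7 symbols and gave the order of neighbouring genes.

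Probe sets in the lowest 25% by mean signal (under 3.63) were not tested, which left 20668. One mean per group was fitted over all 11 arrays with limma 3.58.1 in R 4.3.3 (lmFit, eBayes). P-values were two-sided and adjusted after Benjamini-Hochberg across the 20668 probe sets, with a threshold of 0.05. The functions were tested on simulated data. Where a gene had several probe sets, the one with the highest mean stood for it. Named genes were the members, the 3 genes of each list with the largest difference of HFD from the mean of the other groups, and the 3 (for the mean profile 5) genes most like each member. Those listed genes with both HFD arrays above all others were named as well. The members and the gene and marker lists were chosen with earlier results of these data known. Precision is limited by how few arrays there are, most of all by the 2 of HFD.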

Additional observations from a re-analysis of the deposited data

Results flagged for a closer look

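In 4 genes every array moved one way in a comparison and the opposite way in the matching one. The difference between these effects was not tested, since the genes were chosen on these values. How many of all probe sets did so was not counted. Arrays of the groups compared did not overlap at 11.6% of probe sets in ND+EV against ND and at 14.5% in HFD+EV against ND+EV. That share was not counted for HFD against HFD+EV or HFD against ND, on which these patterns also rest. A group of 2 arrays, such as HFD, stands apart from 3 others more easily than a group of 3 does. For CDO1, the difference of HFD from HFD+EV is also among those that chose the gene. For CDO1, EV minus vehicle was 0.56 under the normal diet (0.26 without both ND replicates 1 and 3) and -0.73 under the high fat diet. ATG4A (0.75 and -0.55) and RRAGC (0.37 and -0.41) did the same, but they were picked for their likeness to CDO1 over these same arrays, which favours it. For NAP1L5, a relative of TSPYL4, EV minus vehicle was 0.73 and -0.47, and high fat minus normal diet was 0.47 with vehicle and -0.73 with EV.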

How the results depend on the processing

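All 5 genes stayed above all other arrays under the 3 rescalings (quantile normalization, cyclic loess and median centring), and leaving arrays out could not end this. The share of all probe sets whose HFD arrays were above all others ran from 4.90% to 14.5% with single arrays left out. With single arrays left out, the difference of HFD from the other groups ran from 1.35 to 2.24 for PCP4L1, 1.73 to 2.59 for A2M, 0.87 to 0.99 for GNB5, 0.77 to 1.18 for TSPYL4 and 0.52 to 1.11 for CDO1. A fit without an HFD array leaves 1 in that group, assumed to vary like the others. In the 3 comparisons without HFD arrays none of the 5 genes passed under any of 22 settings. Signs turned under array weights for A2M in HFD+EV minus ND+EV (-0.37) and HFD+EV minus ND (-0.16), under cyclic loess for TSPYL4 in HFD+EV minus ND (-0.00023), and without both ND replicates 1 and 3 for PCP4L1 in ND+EV minus ND (-0.044) and GNB5 in HFD+EV minus ND (-0.0043). With single arrays left out the ranges were -0.71 to 0.46 for A2M in HFD+EV minus ND+EV, -0.49 to 0.66 in HFD+EV minus ND and -0.22 to 0.55 in ND+EV minus ND, -0.047 to 0.27 for PCP4L1 in ND+EV minus ND, and, in HFD+EV minus ND, -0.041 to 0.21 for GNB5 and -0.10 to 0.20 for TSPYL4.

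The numbers of probe sets called depended on the setting, and the cause was not tested. HFD minus ND (152) gave 0 under quantile normalization, cyclic loess, no filter, an intensity trend, array weights, the 2 groups alone or without both ND replicates 1 and 3, and 0 to 1353 with single arrays left out (1353 without ND replicate 2, 721 without HFD+EV replicate 1, 14 without ND replicate 3, 7 without HFD replicate 1, 1 without ND replicate 1 and 0 without any of the other 6). HFD+EV minus ND (5) gave 1 under quantile normalization, cyclic loess or an intensity trend, 2 under median centring, 3 with no filter, 0 for the 2 groups alone or without both ND replicates, and 0 to 403 with single arrays left out (403 without ND replicate 2, 267 without HFD+EV replicate 1). From 0, HFD+EV minus ND+EV gave 10 under array weights and 2 without both ND replicates, and HFD minus ND+EV gave 1 under array weights. With single arrays left out, HFD+EV minus ND+EV gave 0 to 2, ND+EV minus ND 0 to 2, HFD minus HFD+EV 0 to 1 and HFD minus ND+EV 0 to 3. The replicate numbers mark no shared animal. Deviations of same-numbered arrays correlated at 0.09 on average (-0.10 to 0.33), against -0.04 (-0.34 to 0.19) for arrays of different number, 7 of 11 arrays correlated best with their own number, and with the replicate number as a block HFD minus ND gave 938 calls, 7 of them among the 74 listed genes, and HFD+EV minus ND 132.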
